A study of Mus musculus with 8 samples.

Results

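The Myc, Max and Mxd network is a set of related transcription factors, and it was followed in C2C12 myoblasts after silencing of the long non-coding RNA Pvt1. The genes were Myc, Mycn, Max, Mxd1, Mxd3, Mxd4, Mxi1, Mnt, Mga and Mlx, chosen by name. Every probe that the array assigns to 1 of these 10 genes was taken, which gave 20 probes out of 56605. The array holds 2 probes each for Myc, Max, Mxd1, Mxd3, Mxd4, Mxi1 and Mlx, 4 for Mga, and 1 each for Mycn and Mnt.

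Total RNA came from 8 cultures of C2C12, a mouse myoblast line, all proliferating and at passage 10. In 4 cultures Pvt1 was silenced with the LNA GapmeRs Pvt1_1 and Pvt1_3, delivered with Lipofectamine 2000. The other 4 cultures received control GapmeRs with the same reagent and are called controls below. The labels number the cultures 1 to 4 in each group as biological replicates, and do not say whether every silenced culture received both GapmeRs.

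Myc is a proto-oncogene whose protein binds DNA only as a dimer with Max, and this pair activates genes of growth and ribosome production. The Mxd proteins, Mxi1, Mnt and Mga also pair with Max and compete with Myc, mostly as repressors, while Mlx is a Max-like partner of some Mxd proteins and of the glucose-sensing Mondo factors. These dimers share a preferred DNA motif, the E-box CACGTG. In dividing myoblasts Myc is linked to proliferation, and the Pvt1 gene is a neighbour of Myc on chromosome 15.

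The sequences behind the central results were those of the 2 GapmeRs, which define the treatment, and of some of the probes whose signal is described below. In the 3′ Myc and the 5′ Mlx probe, capitals mark a stop triplet that ends a reading frame open from the start of the probe. All positions are those of build mm9.
GapmeR Pvt1_1: accgtagtagagttaa
GapmeR Pvt1_3: agtcaacgcttcacat
Myc, 5′ probe (chr15:61820925-61820984, plus strand): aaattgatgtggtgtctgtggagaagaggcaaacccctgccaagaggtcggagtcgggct
Myc, 3′ probe (chr15:61821417-61821476, plus strand): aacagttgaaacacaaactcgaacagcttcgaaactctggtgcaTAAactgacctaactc
Mxd3, 5′ probe (chr13:55427253-55427426, minus strand): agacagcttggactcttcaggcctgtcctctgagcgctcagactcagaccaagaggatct
Mga, middle probe (chr2:119773937-119773996, plus strand): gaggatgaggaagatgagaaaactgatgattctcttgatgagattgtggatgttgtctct
Mlx, 5′ probe (chr11:100952426-100952485, plus strand): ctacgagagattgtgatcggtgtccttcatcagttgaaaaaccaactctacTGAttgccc

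Probes of the same gene read different places of its transcript. The Myc pair lay 492 bases apart, the Mxd3 pair 367 and the Mlx pair 464. For Mxd3 the 5′ probe of 60 bases covers 174 positions of the genome, as it crosses an intron. Exon and UTR annotation of build mm9 was not used here.

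The brightest Pvt1 probe fell from 9.86 ± 0.30 (SD, n = 4) in controls to 7.0 ± 0.63 (SD, n = 4) after silencing, on the scale of normalized log2 signal used for all values of single probes. On control arrays 58.8% to 62.5% of spots were positive and significant, and on silenced arrays 51.6% to 61.0%, with silenced replicate 4 the dimmest. The arrays correlated with the rest of their group at a mean of 0.980 to 0.986, except control replicate 3, at 0.96. Of 27181 tested probes with a value there, 693 (2.55%) lay over 2 log2 below the mean of the other controls on that array, so the counts of calls, the called probes of the network and the list medians are given with and without it. Myoblast markers were well above background for 8 of 10 genes in both groups, led by Vim and Itga7, while Myf5 and Myf6 were not on any array. On log2 values quantile normalized without the mask on dim spots, the scale of the list means here, the mean level of the myoblast list was 11.73 to 11.84 in controls and 11.21 to 11.54 after silencing, and in the masked values Myod1 (-1.95), Des (-1.35) and Cdh15 (-0.86) were called lower. Of 10 liver markers, 1 was well above background on all control arrays and 6 on all silenced arrays. The mean of the liver list was 4.80 to 5.06 in controls and 7.84 to 8.11 after silencing, and Mup1 was at least 25.0-fold higher. Differentiated muscle markers had a mean of 7.56 to 7.84 in controls and 6.92 to 7.06 after silencing, and fibroblast markers of 8.78 to 8.96 and 9.26 to 9.55. Of the muscle markers Tmem8c (-2.04), Myh1 (-1.93) and Acta1 (-1.88) were called lower in the masked values, while Myog (0.13) was not called. Of the fibroblast markers Dcn (2.49) and Pdgfra (0.73) were called higher, while Col1a1 (-0.45) and Col3a1 (-0.39) were not called. The part of these shifts in the results was not tested. In bulk RNA, fewer cells of a type and less RNA per cell cannot be told apart.

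Across the network, 15 probes of 9 genes could be tested, with values on at least 3 arrays of each group. After Pvt1 silencing 5 of the 15 probes were lower and none was higher at a limma adjusted p under 0.05, where no rise had an unadjusted p under that value either. Over all 28649 tested probes, 18.4% were called lower and 4.79% higher, and their median change was -0.19. That split depended on single arrays and on the scaling. Without control replicate 2, 3115 of 27449 probes were lower, and without control replicate 4, 3013 of 27398, against 5269 of 28649. Without silenced replicate 4, 3653 of 28190 were higher and the median was -0.02, while without any other single array 2.45% to 6.09% were higher. With cyclic loess 5258 probes were lower and 5416 higher, in the table of the authors they numbered 4461 and 4509, and with the 75th percentile shift 4365 and 7075, where the median change was 0.16. Of the member probes 5 were lower with loess and with the 75th percentile shift, where 2 were higher, and 4 were lower in that table. With quantile normalization the lower probes were both of Mxd3 and 1 each of Max, Mga and Mlx. Without control replicate 3 the count was 6 lower and none higher, against 21.1% and 6.09% of 27658 probes. In that fit no rise had an unadjusted p under 0.05 either. Both Myc probes then joined those lower, and the Mga probe was no longer among them. The median change over the 15 probes was -0.49 with all arrays and -0.48 without that control.

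**Figure D1:**
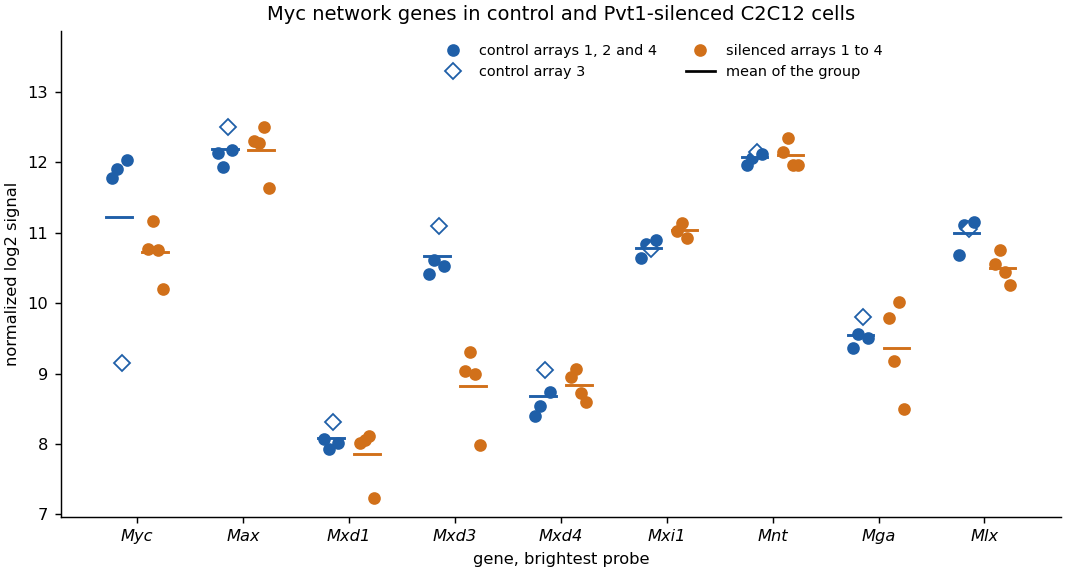
The vertical axis gives the normalized log2 signal of the brightest probe of each of 9 network genes, with 4 control arrays (blue) and up to 4 silenced arrays (orange), and lines at the group means. The open diamond is control replicate 3, at 9.15 for Myc against 11.78 to 12.03 on the other controls, while the silenced Mxd3 values all lie below the controls.

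Myc itself was measured by a pair of probes. Its brightest probe, the 3′ one, gave log2 signals of 11.78, 11.91, 9.15 and 12.03 in control replicates 1 to 4 and of 10.77, 11.17, 10.75 and 10.20 in silenced replicates 1 to 4. Control replicate 3 was the lowest of all 8 values, and each of the remaining controls lay above every silenced culture. With all arrays the change was -0.49 (SE 0.59, limma adjusted p 0.592), smaller than the SD of 1.38 between controls. Without control replicate 3 the controls averaged 11.91 ± 0.12 (SD, n = 3), and the change was -1.18 (SE 0.26, limma adjusted p 0.0097), a drop to 44.0% of control. Relative to the median of all probes the change of -1.18 was -0.99. Leaving out control replicate 4 as well ended the call (-1.12, limma adjusted p 0.0543).

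The 5′ Myc probe gave 9.62, 9.82, 7.08 and 9.90 in the controls and 8.10, 8.62, 7.59 and 7.72 in the silenced cultures. Control replicate 3 was again below all other arrays. The change was -1.10 (SE 0.59, limma adjusted p 0.209) with all arrays and -1.77 (SE 0.28, limma adjusted p 0.0025) without that control. The Myc call therefore rested on whether 1 control array was kept, and on both probes the 3 remaining controls did not overlap with the 4 silenced cultures. This was so for 40.3% of all probes without control replicate 3, and for 28.2% with all arrays, where neither Myc probe was among them.

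The change of Myc was also taken within each row of the slide, and an effect of slide position was not tested. The upper row held control replicates 1, 2 and 3 with silenced replicate 1, and the lower row the rest. For the brightest Myc probe the change was -0.18 within the upper row and -1.32 within the lower row, where control replicate 4 was the only control. Within the upper row without control replicate 3 it was -1.08, from 2 controls and 1 silenced culture. With the row as a block the change was -0.75 (limma adjusted p 0.532), and without control replicate 3 it was -1.20 and called.

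Control replicate 3 was low on both Myc probes to the same extent. Its deviation from the mean of the other controls was -2.76 on the 3′ probe and -2.70 on the 5′ probe. The difference of the 5′ from the 3′ signal was -2.17, -2.09, -2.07 and -2.13 in controls 1 to 4, so that array did not stand apart in it. No other tested probe of the network was over 1 log2 below the other controls on that array. For the 5′ Mxd3 probe it was 10.27 and for the brightest Max probe 12.50, inside or above the range of the other controls. The dimmer Max probe was at 7.33 there, below the 7.96 to 8.29 of the other controls. The dimmer Mxd4 probe was at 6.96, above their 4.61 to 5.68.

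Max encodes the obligate partner of Myc and of most other members. Its brightest probe gave 12.13, 11.93, 12.50 and 12.18 in controls and 12.30, 12.27, 12.50 and 11.63 after silencing. These ranges overlapped, and the change was -0.01 (SE 0.24, limma adjusted p 0.986). A dimmer probe 1029 bases nearer the 5′ end gave 7.96, 8.29, 7.33 and 8.23 in controls and 6.98, 6.61, 6.91 and 6.18 after silencing. All 4 silenced values lay below all controls, and the change was -1.28 (SE 0.28, limma adjusted p 0.0103), or -1.49 without control replicate 3. It was well above background on all control arrays and on 3 silenced arrays. The pair of Max probes therefore disagreed, and a change of the whole Max transcript was not shown.

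Mxd3, an Mxd repressor known for its expression in proliferating cells, was the member lower on both of its probes with all arrays. The 5′ probe gave 9.94, 10.18, 10.27 and 10.40 in controls and 8.52, 8.57, 8.29 and 8.0 after silencing. The brightest probe, the 3′ one, gave 10.41, 10.62, 11.10 and 10.53 in controls and 9.03, 9.30, 9.0 and 7.98 after silencing. Every silenced culture was below every control on both probes, control replicate 3 included.

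On the 5′ probe Mxd3 fell by 1.85 (SE 0.21, limma adjusted p 0.0007), to 27.7% of control. On the brightest probe the change was -1.84 (SE 0.31, limma adjusted p 0.0033), to 28.0% of control. Leaving out control replicate 3 gave -1.83 and -1.69, both called. Within the upper row of the slide the brightest probe changed by -1.68 and within the lower row by -1.77. These falls were larger than the spread between replicates, whose SD was 0.20 to 0.30 in controls and 0.26 to 0.58 after silencing.

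The remaining Mxd genes, which encode repressors that often rise as cells leave the cycle, were not called. Mxd1 gave 8.07, 7.93, 8.31 and 8.02 in controls and 8.02, 8.05, 8.12 and 7.23 after silencing, a change of -0.23 (SE 0.24, limma adjusted p 0.546). Only silenced replicate 4 lay below the controls. Its 5′ probe had a value on 2 control arrays and no silenced array, was well above background on none, and was not tested.

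The brightest Mxd4 probe gave 8.40, 8.54, 9.05 and 8.74 in controls and 8.95, 9.06, 8.73 and 8.59 after silencing. The groups overlapped, with a change of 0.15 (SE 0.22, limma adjusted p 0.664). The dimmer Mxd4 probe changed by -0.36 (SE 0.51) with all arrays and by 0.05 without control replicate 3, and was well above background on 1 array of each group. Mxi1 gave 10.64, 10.84, 10.77 and 10.90 in controls and 11.03, 11.14 and 10.93 on the 3 silenced arrays with a value. All 3 lay above the controls, but the change of 0.24 (SE 0.20, limma adjusted p 0.427) was not called. The other Mxi1 probe had a value on 1 control and 2 silenced arrays and was not tested.

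Mnt, a broadly expressed Max-binding repressor, had the smallest spread between controls among the tested probes. Its probe gave 11.96, 12.06, 12.15 and 12.12 in controls and 12.15, 12.35, 11.97 and 11.97 after silencing. The groups overlapped, and the change was 0.04 (SE 0.18, limma adjusted p 0.915).

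Mga encodes a very large protein that joins the Max motif to a T-box domain. Its brightest probe, at the 3′ end, gave 9.36, 9.56, 9.80 and 9.50 in controls and 9.79, 9.18, 10.01 and 8.50 after silencing, a change of -0.19 (SE 0.32, limma adjusted p 0.724). The silenced values spread on both sides of the controls. The probe 12200 bases nearer the 5′ end gave 8.68, 9.04, 9.43 and 9.12 in controls and 8.50, 8.23, 8.42 and 7.52 after silencing. These did not overlap, and the change was -0.90 (SE 0.27, limma adjusted p 0.0383). It was -0.78 without control replicate 3 (limma adjusted p 0.0673), and the call was also lost without control replicate 2, control replicate 4 or silenced replicate 2, with the methods' t-test (adjusted p 0.0709), and with the slide row as a block (adjusted p 0.155). The 2 Mga probes farthest 5′ had a value on 1 silenced array each and were not tested.

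Mlx was the member whose 3′ probe fell more than its 5′ probe. The brightest probe, the 5′ one, gave 10.69, 11.11, 11.06 and 11.15 in controls and 10.55, 10.76, 10.44 and 10.26 after silencing. Silenced replicate 2 was above control replicate 1, and the change was -0.50 (SE 0.20, limma adjusted p 0.107). The probe 464 bases downstream gave 8.45, 8.75, 8.86 and 8.38 in controls and 7.48, 7.80, 6.84 and 7.20 after silencing. All silenced values were below the controls, with a change of -1.28 (SE 0.25, limma adjusted p 0.0064), or -1.20 without control replicate 3. That call was lost with the authors' table (-0.95, limma adjusted p 0.0804) and with no mask on dim spots (-0.96, limma adjusted p 0.0909).

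Mycn, the Myc relative of early development, had no positive and significant signal on any of the 8 arrays at its single probe. No change can be given for it.

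**Figure D2:**
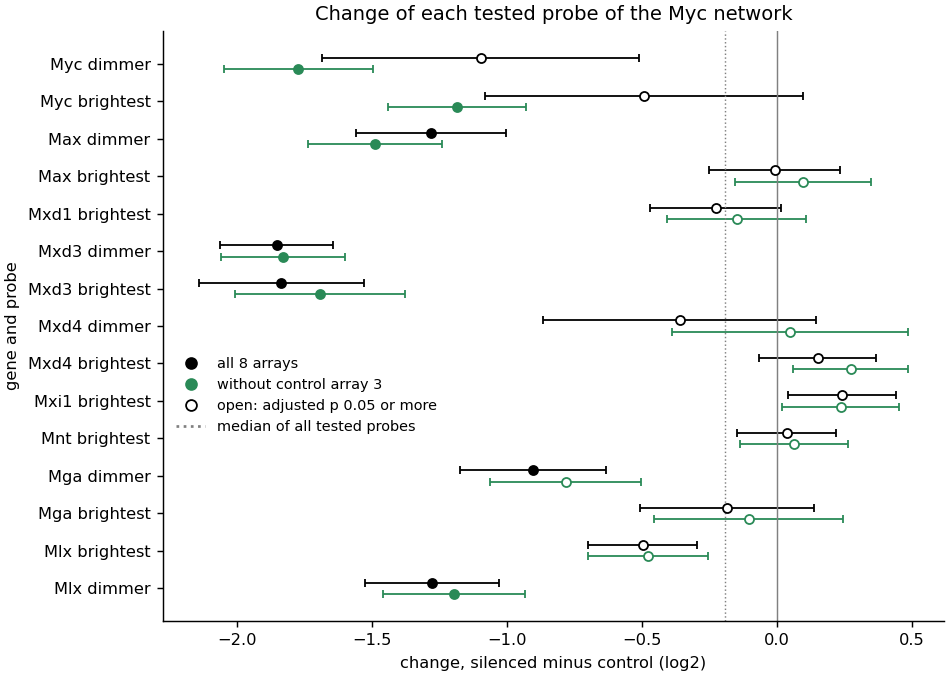
Points give the change of each of the 15 tested probes, silenced minus control in log2, with bars of 1 SE, for all 8 arrays (black) and without control replicate 3 (green); filled points passed a limma adjusted p of 0.05. Mxd3 lies at -1.85 (5′) and -1.84 (brightest) with all arrays, and at -1.83 and -1.69 without control replicate 3. The Myc points move from -0.49 to -1.18 and from -1.10 to -1.77 when that array is left out.

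Within a gene, the 5′ signal was next compared with the 3′ signal on the same array, in the 6 genes with a pair of tested probes. Larger falls at 5′ probes were known from these data when the comparison was set, so its values are given as a description, with no test. In Myc the 5′ minus 3′ difference was -2.17, -2.09, -2.07 and -2.13 in controls and -2.67, -2.56, -3.16 and -2.48 after silencing. The silenced cultures were all lower, with a mean shift of -0.60, or -0.59 without control replicate 3.

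In Max the difference was -4.17, -3.64, -5.17 and -3.95 in controls and -5.32, -5.67, -5.60 and -5.44 after silencing. In Mga it went from between -0.68 and -0.37 to between -1.59 and -0.95. Both were lower without overlap, with mean shifts of -1.27 and -0.72, or -1.59 and -0.68 without control replicate 3. Mlx ran the other way, from 2.20 to 2.77 in controls up to 2.96 to 3.60 after silencing, a shift of 0.78, or 0.72 without that control. The Mlx groups overlapped with cyclic loess, where silenced replicate 4 was at 2.67 and the controls at 2.21 to 2.89, and with no mask on dim spots, where it was at 2.74. Mxd3 (-0.02) and Mxd4 (-0.51) overlapped between groups.

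Lower 5′ signal was common on these arrays. Of 6152 genes with such a pair of probes, 70.9% had a larger fall at the 5′ probe, with a median shift of -0.44, and 32.0% were lower without overlap. In the network this held for 5 of 6 genes and, without overlap, for 3 of 6. With control replicate 3 left out, the share lower without overlap was 47.1% of 5987 genes, and again 3 of 6 network genes. The count of 3 fell to 1 (Mga) with cyclic loess. There silenced replicate 4 had a Myc difference of -2.14, inside the control range of -2.20 to -2.09, and the remaining silenced cultures were at -3.13 to -2.54. With the 75th percentile shift Myc and Mga stayed without overlap, while Max overlapped, as control replicate 3 was at -5.45 and silenced replicate 4 at -5.06.

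**Figure D3:**
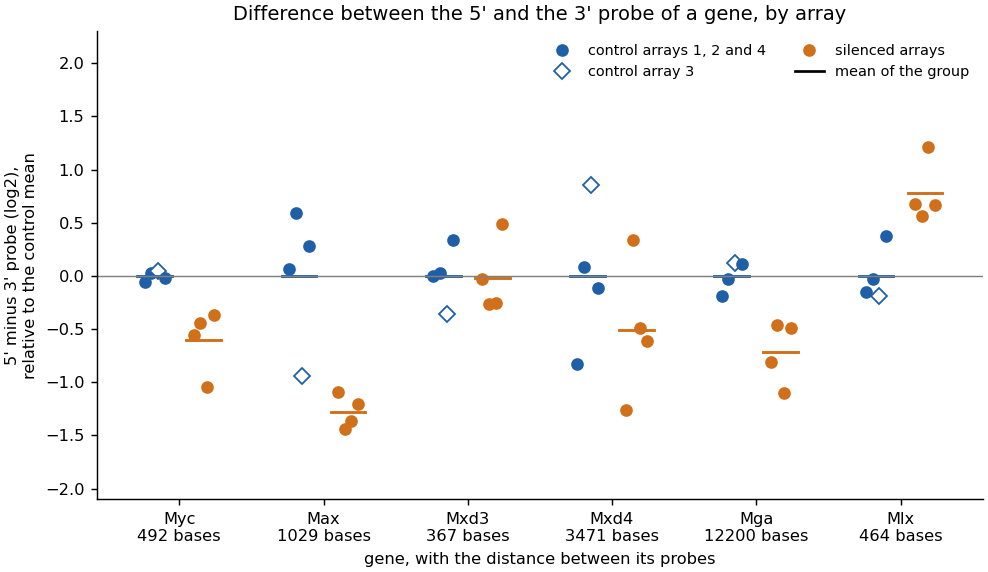
The vertical axis gives the 5′ minus the 3′ probe of a gene in log2, relative to the mean of its 4 control arrays, for the 6 genes with a pair of tested probes, and lines mark group means. Silenced arrays (orange) lie below all controls for Myc, Max and Mga and above them for Mlx, and control replicate 3 (open diamond) is among the other controls for Myc.

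The genes whose pattern was most like that of the brightest Myc probe were sought among 17995 probes well above background on all 8 arrays. They were Sdccag3 (Pearson r 0.997), Sypl (0.996), Rnf4 (0.996), Zdhhc1 (0.996) and Gid4 (0.995), over 8 arrays. As the spread of Myc came mostly from control replicate 3, this choice favours probes that were low there, such as Sdccag3, at 9.86 against 11.36 to 11.47 on the other controls. Without that array their r was 0.991 to 0.994. The 5′ Myc probe had r 0.941 with the 3′ probe. Among tested probes of the other members, the dimmer Max probe had r 0.611 and the rest were between -0.528 and 0.285, the Mxi1 probe over the 7 arrays with a value. Without control replicate 3 the r of several members was high, at 0.967 and 0.990 for the Mxd3 probes, 0.939 for the dimmer Max probe, 0.923 and 0.907 for the Mlx probes and 0.898 for the middle Mga probe. The remaining tested probes of other members were between -0.568 (Mxi1, over the arrays with a value) and 0.562 (Mxd1). As Myc then separated the groups without overlap, a high r goes with a lower signal after silencing. These values are descriptions over few arrays that share a slide.

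Genes around the network were then counted, each by its brightest tested probe. Over all 19360 genes, 14.0% were called lower and 5.99% higher, with a median change of -0.09. These shares were 15.8% and 7.67% without control replicate 3. Without control replicate 2 or control replicate 4, 8.19% and 7.95% were lower, and without silenced replicate 4, 15.5% were higher and the median was 0.07. The lists were drawn from general knowledge of the network, and each is described by its counts and median. With quantile normalization and all arrays, no gene of the turnover, cofactor and activated lists was called higher by limma or by the methods' t-test, and at an unadjusted limma p under 0.05 there was 1 in the turnover list and 0 in the other two.

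Of 6 further network genes tested, 2 were lower and 1 higher, with a median change of -0.17. The median was -0.11 without control replicate 3 and 0.09 without silenced replicate 4. Zbtb17, which encodes the Myc-interacting factor Miz1, changed by -1.30 (limma adjusted p 0.0095), or -1.14 without that control. Mlxip, a Mondo partner of Mlx, changed by -0.85 (limma adjusted p 0.0213), or -0.86. Mlxipl, the carbohydrate-sensing relative ChREBP, rose by 0.84 (limma adjusted p 0.0364), a call lost in 7 of the 8 fits that leave out 1 array, all but that without silenced replicate 4, and with the methods' t-test.

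Of 17 genes of Myc protein turnover, 4 were lower and none higher, with a median of -0.43. Without control replicate 3 the counts were the same and the median was -0.35. Without silenced replicate 4, 5 were lower and 1 higher, with a median of -0.12. Stub1, a ubiquitin ligase, changed by -1.21, Ppp2r1a, a scaffold of protein phosphatase 2A, by -1.04, and Huwe1, another ubiquitin ligase, by -0.94. Without control replicate 3 these were -1.11, -0.98 and -0.97, all called. Of 20 cofactor genes, 3 were lower and none higher, with a median of -0.37. These were Ncor1 (-1.35), a corepressor, Actl6a (-1.10), a subunit of remodelling and acetyltransferase complexes, and Sin3a (-0.65), the corepressor that Mxd proteins recruit. Without control replicate 3 these were -1.25, -1.16 and -0.64, and the list median was -0.30. The count of lower cofactor genes was then 5, among them Hdac2, a histone deacetylase, whose log2 signal was 5.14 on control replicate 3 and 9.32 to 9.39 on the other controls.

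Genes known to be activated by Myc were the largest list. Of 33 tested genes 11 were lower and none higher, with a median of -0.33, and without control replicate 3 the counts were the same and the median -0.37. With the 75th percentile shift 8 were lower and 6 higher. Rrp9, a processing factor of ribosomal RNA, gave 12.64, 13.03, 13.43 and 13.02 in controls and 10.95, 11.31, 10.73 and 10.89 after silencing. It changed by -2.06 (SE 0.23, limma adjusted p 0.0007), or -1.93 without that control, with no overlap. Shmt2, a mitochondrial enzyme of one-carbon metabolism, changed by -1.79, and Tfrc, the transferrin receptor, by -1.75, and without that control by -1.82 and -1.77. On control replicate 3, where Myc was low, 10 of the 33 genes lay below the range of the other controls, 7 inside it and 16 above it. The deviations from the mean of the other controls ran from -2.77, for Slc16a1, a lactate transporter, to 0.80, for Apex1, a DNA repair enzyme, with a median of 0.06. Nolc1, a nucleolar phosphoprotein, was at -1.37, and Shmt2 and Tfrc were at -0.12 and -0.05. Over all 27181 tested probes with a value there the median deviation was 0.14. Of 11 genes of the repressed list described below, 8 lay below the range of the other controls, 1 inside it and 2 above it. Their median deviation on that array was -0.57.

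The other 22 tested genes of that list were not called. Npm1, which encodes the nucleolar protein nucleophosmin, changed by -0.38, Odc1, the first enzyme of polyamine synthesis, by -0.05, and Cdk4, a cell cycle kinase, by -0.13. Those 3 were named after their values were seen, as usual examples of Myc targets. The telomerase gene Tert had a value on 1 silenced array and was not tested.

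Of 12 genes known to be repressed by Myc, 2 were higher and 1 lower, with a median of 0.22. That median rested on Cdkn2b, a cyclin-dependent kinase inhibitor whose silenced values were 15.45, 6.56 and 5.46 and which could not be tested in 6 of the 8 fits without 1 array. Over the other 11 genes the median was -0.0023 with all arrays and 0.024 without control replicate 3. It was -0.0092 to 0.19 when each array but silenced replicate 4 was left out, and 0.54 without that one. Txnip, which encodes an inhibitor of thioredoxin and of glucose uptake, gave 10.48, 10.54, 10.47 and 10.83 in controls and 12.15, 12.34, 12.01 and 11.88 after silencing. It rose by 1.51 (SE 0.20, limma adjusted p 0.0011), or 1.47 without control replicate 3, with all silenced cultures above all controls. Ndrg2, a stress and differentiation gene, rose by 1.31 (limma adjusted p 0.0176), or 1.34 without that control. Cebpa, a differentiation factor, was well above background on all controls and on no silenced array, which put it at least 1.84-fold higher in the control cultures. With control replicate 3 left out, the list held 3 higher and 3 lower genes of 11 tested. Cdkn2c, a cyclin-dependent kinase inhibitor, and Thbs1, an extracellular matrix protein, were lower in that fit (-1.22 and -1.07), and both were low on that array (9.31 against 11.70 to 11.91, and 10.08 against 13.60 to 13.76).

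**Figure D4:**
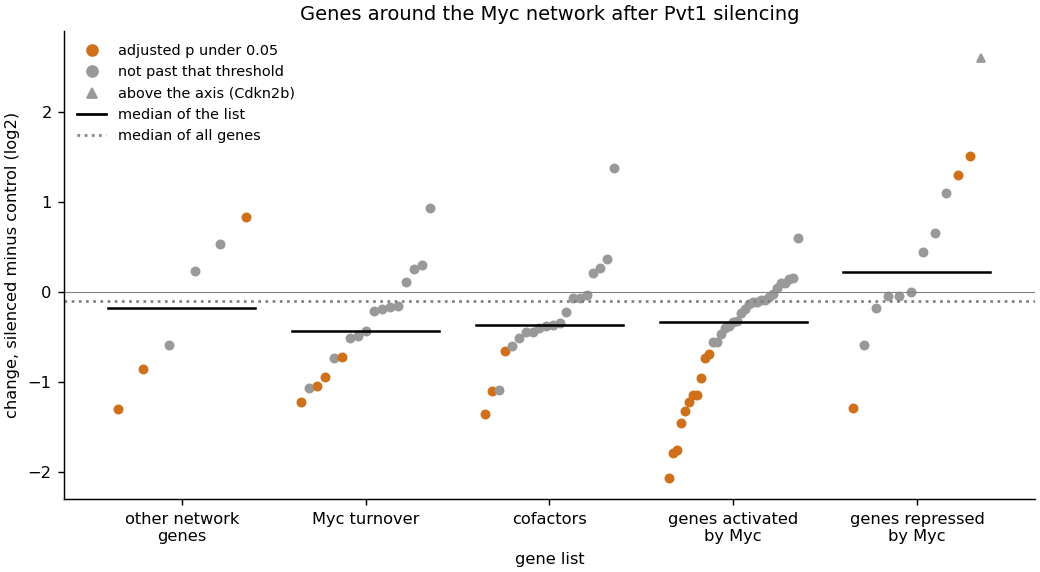
Each point is the change of 1 gene, silenced minus control in log2, sorted within 5 lists of genes around the Myc network, orange where the limma adjusted p was under 0.05. Bars mark list medians, -0.33 for genes activated and 0.22 for genes repressed by Myc (-0.0023 without Cdkn2b), and the dotted line the median of all genes, -0.09; the triangle is Cdkn2b, whose change of 4.53 was not called and lies above the axis.

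Over the 5 lists 21 genes were lower and 3 higher. With cyclic loess in place of quantile normalization the split was 23 lower and 10 higher, while over all genes it went from 2717 lower and 1160 higher to 2765 lower and 4287 higher. With the 75th percentile shift the lists held 16 lower and 17 higher genes, and all genes 2064 and 5773, with a median of 0.29.

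The list medians moved with that of all genes. For the activated list the median was -0.33 with quantile normalization, -0.21 with loess and 0.18 with the 75th percentile shift. Its distance from the median of all genes was -0.24, -0.32 and -0.11 in those settings. For the turnover list the median was -0.43, -0.11 and 0.09, with 2 genes higher under loess and 3 lower and 3 higher under the 75th percentile shift. Its distance from all genes was -0.34, -0.22 and -0.20. For the cofactor list the median was -0.37, -0.19 and 0.10, with 2 genes lower and 3 higher under the 75th percentile shift. For the repressed list, Cdkn2b included, it was 0.22, 0.40 and 0.68. Its distance from all genes was 0.31, 0.29 and 0.39.

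When a gene's tested probes were averaged instead of taking its brightest, more list genes were lower, 31 in all. They included 9 of the turnover list, 5 of the cofactor list and 14 of the activated list, with medians of -0.71, -0.62 and -0.63. Of the other network genes 2 were lower, with a median of -0.50. The repressed list, Cdkn2b included, held 1 lower and 1 higher gene, with a median of 0.55. Over all genes the median was then -0.17, with 14.3% lower and 4.24% higher.

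The E-box of the network was searched in RefSeq promoters of build GRCm38.p6, from 250 bases before to 50 after each start. The motif CACGTG reads the same on both strands. It was present in 7.15% of all 32851 promoters, in 4 of 11 promoters of the 9 members in that table, which are all but Myc, in 10 of 34 promoters of the activated list and in 3 of 14 of the repressed list. The members with a match were Mxd4, Mnt, Mlx and Max, and the match at Max began 3 bases before the start. The others are shown because they carry the motif that the member proteins bind, in capitals and in the direction of transcription.
Mxd4 (chr5:34187909-34187944, minus strand): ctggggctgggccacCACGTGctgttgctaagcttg
Mnt (chr11:74830786-74830821, plus strand): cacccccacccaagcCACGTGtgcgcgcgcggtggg
Mlx (chr11:101087235-101087270, plus strand): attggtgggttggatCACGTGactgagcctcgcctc
The promoter of Mxd3, the member lower on both probes, held no such run of letters in this window. The brightest probes of the 4 genes with a match changed by 0.15 (Mxd4), 0.04 (Mnt), -0.50 (Mlx) and -0.01 (Max), and none was called, while the dimmer Mlx and Max probes were called lower, both at -1.28. A match is a run of letters and was not tested as a binding site.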

How the data were processed

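RNA of 4 control and 4 silenced C2C12 cultures had been hybridised to one-colour Agilent arrays on 1 slide, read in 1 scan. The deposited files hold spot intensity and flags (a score of 0 or 1) written by Feature Extraction 12.0.0.7 per the file headers, against build mm9, while the labels name version 10.7.3.1. The authors also deposited a table of quantile-normalized intensity. Processed signals were turned to log2, with spots not positive and significant set to missing as in the study's methods, and control and outlier spots left out. Values were quantile normalized, averaged per probe and compared by lmFit followed by eBayes (limma 3.58.1 under R 4.3.3) over 28649 probes with at least 3 values in each group. The Benjamini-Hochberg adjustment ran over all of them, with a threshold of 0.05.

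Named were all probes of the members, of each list up to the 3 largest called rises and falls, the brightest markers, Pvt1, and the 5 probes most correlated with Myc. Genes of the lists named because of control replicate 3, and markers named as undetected, for a bound or for their change, were added after their values were seen. Members and lists were chosen with earlier results of these data known. The deviations of same-numbered cultures correlated at -0.04, 0.19, 0.22 and 0.06 for replicates 1 to 4, not over 0.1 in every pair, so the replicate number was not used as a pairing. The alternatives were other normalizations, masks, blocks, priors and tests, the authors' table, and leaving out each array, and those without control replicate 3 and 3 of those for the lists were added after the data were seen. The methods' t-test is the one stated for fast against slow fibres, here with p-values from the t distribution in place of permutation. The number of arrays limits the precision. Figures were drawn with matplotlib 3.10.9.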

Additional observations from a re-analysis of the deposited data

Results flagged for a closer look

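Among 30 groups of 4 values of the member probes, 3 held an array that stood apart from its group by Dixon's limit, where chance gives about 1 in 20. On control replicate 3 the log2 signal of the brightest Myc probe was 9.15 against 11.78 to 12.03 on the other controls, and that of the dimmer Myc probe was 7.08 against 9.62 to 9.90. On silenced replicate 4 the brightest Mxd1 probe gave 7.23, where the remaining silenced cultures gave 8.02 to 8.12. The deviation of that array from the mean of those cultures was -0.83 for the Mxd1 probe and -0.69 for the median tested probe.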

How the results depend on the processing

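The fall of Mxd3 kept its call on both probes under 19 of 20 alternatives, between -1.99 and -1.55 for the brightest, and lost it under the methods' t-test with Bonferroni adjustment (-1.84), which called 0 of the 15 probes lower. The count of probes called lower was 4 to 6 elsewhere, and 4 to 6 when each array was left out, with none higher. The 75th percentile shift called 2 probes higher, Mnt and Mxi1, and no mask 1. The brightest Myc probe changed by -1.18 to -0.22 when each array was left out, called only without control replicate 3. Without that control it changed by -1.33 to -1.01 when a further array was left out, and lost its call without control replicate 4 (-1.12, limma adjusted p 0.0543). The 75th percentile then called 3 probes higher and cyclic loess 1. With the replicate block, 4 probes were lower and none higher, the Mga call was lost (-0.90, limma adjusted p 0.0683), 16 list genes were lower and 2 higher, and no other member call changed, while 13.9% of all probes and 9.93% of all genes were lower. Genes with a lower 5′ minus 3′ value numbered 1 with cyclic loess and 0 with no mask, where dimmer Mga probes entered, and 3 whichever array was left out. List genes called higher numbered 17 with the 75th percentile shift, 10 with cyclic loess, 9 in the authors' table, 8 with no mask, 1 each by the mean of all probes and with the slide row block, and 2 to 7 when each array was left out (7 without silenced replicate 4), against 3. Signs turned only for changes that were not called. The brightest Max probe was 0.44 (75th percentile), 0.16 (cyclic loess and no mask), 0.15 (authors' table), 0.034 (slide row block) and -0.12 to 0.17 when each array was left out. The brightest Mga probe was 0.090 (75th percentile), 0.075 (cyclic loess), 0.10 (no mask), 0.11 (authors' table) and -0.40 to 0.11 when each array was left out. The brightest Mxd1 probe was 0.060 (75th percentile), 0.15 (cyclic loess), 0.11 (no mask) and 0.12 (authors' table). Mnt was -0.045 to 0.083 when each array was left out. The dimmer Mxd4 probe was 0.033 (75th percentile) and -0.73 to 0.048 when each array was left out. The cause of these shifts was not tested. Silenced replicate 4 was the dimmest array, and probes near background limit the values of Mycn, Mxd1, Mxd4, Mxi1 and the 5′ Mga probes.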

Other observations

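Control replicate 3 differed from the other controls in several genes around Myc, not only in Myc. Of 87 genes on the 5 lists with a value there, 7 (8.05%) lay over 2 log2 below the mean of the other controls, against 1.98% of 18368 genes counted in the same way, each by its brightest tested probe. They were Hdac2, Sap30, Slc16a1, Cdkn2c, Gadd45a, Thbs1 and Klf6, which span corepressor subunits, a lactate transporter, cell cycle inhibitors and growth-responsive genes. Over 1 log2 below were 12 list genes (13.8%), those 7 included, and 6.58% of all genes. Sap30, a subunit of the Sin3 corepressor complex, gave 5.73 on that array and 9.70 to 9.95 on the other controls. Slc16a1, the lactate transporter, gave 10.67 there and 13.14 to 13.64 on the others.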
